A study of Mus musculus with 6 samples.

Results

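Transcripts of 9 genes that carry or restrain death receptor signalling were followed in mouse neutrophils that had received LPS with or without resveratrol. The genes were taken by name: the death receptor gene Fas, the protease gene Casp8, its inhibitor Cflar, the inhibitor of apoptosis (IAP) genes Xiap, Birc2 and Birc3, and the necroptosis genes Ripk1, Ripk3 and Mlkl. They are 9 of 25663 gene IDs in the deposited count table, and each was among the 13468 genes with enough counts to be tested. The cells came from bone marrow of C57BL/6 mice and were sorted as positive for CD45, CD11b and Ly6G, markers that together select neutrophils. One group of 3 libraries, LPS+resveratrol, had 6 hours of LPS, a bacterial cell wall component, together with resveratrol, a plant polyphenol, whose amount the labels write as 25 μmol. The other group of 3 libraries, LPS, had 6 hours of LPS alone. No library without LPS was analysed here, so each value is a difference between LPS-stimulated cells. The design text speaks of duplicates, while 3 samples a group are labelled. The labels do not say whether the libraries of a group came from separate mice, and the p-values therefore measure the spread between these libraries, which may be technical.

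Neutrophils are short-lived, and death receptors are one route by which their lives end. When FAS is bound by its ligand, the adaptor FADD brings caspase-8 to the receptor, and active caspase-8 cuts the executioner caspases. The protein c-FLIP, encoded by Cflar, resembles caspase-8 without its protease activity and limits it at the receptor. XIAP blocks executioner caspases, while the ubiquitin ligases cIAP1 (Birc2) and cIAP2 (Birc3) act on the kinase RIPK1 below the TNF receptor and favour survival signalling. Where caspase-8 is not active, RIPK1 can engage RIPK3, which phosphorylates MLKL, and MLKL then perforates the plasma membrane. That form of lytic death is called necroptosis.

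Total counts were between 18478832 and 19928153 in LPS+resveratrol libraries and between 18141352 and 18687052 in LPS libraries. All 10 fixed neutrophil markers were tested, and their summed level was 30690, 56330 and 56720 CPM in LPS+resveratrol libraries and between 48260 and 51800 CPM in LPS libraries. In this sum replicate 1 with resveratrol was below every LPS library and replicates 2 and 3 were above every one. The markers did not move together in replicate 1. S100a8, S100a9, Camp and Ly6g were below every LPS library there, S100a9 at 8125 CPM against 21250 to 23360 CPM. Retnlg, Mmp8, Mmp9, Ltf, Csf3r and Cxcr2 were above every LPS library, Ltf at 8439 CPM against 6276 to 6717 CPM. CPM are counts scaled to a common library total. LPS+resveratrol replicate 1 stood apart: across genes its log2 CPM correlated with the other 5 libraries at 0.960 to 0.969, while the highest correlation of each other library was at least 0.993. Results are therefore given over 6 libraries and over 5, without that replicate. Biological variation between libraries of a group, as edgeR estimates it, was 19.8% with that replicate and 7.43% without it.

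None of the 9 genes passed over 6 libraries at the threshold of 0.05 on edgeR's adjusted p (quasi-likelihood test, Benjamini-Hochberg method), where 1.83% of all tested genes did. Without LPS+resveratrol replicate 1, Casp8, Mlkl and Fas fell and Birc3 rose. These are 3 of 9 lower, where 13.3% of tested genes were called lower, and 1 of 9 higher, where 12.1% were called higher, or 4 of 9 in either direction against 25.4%. The 5 others, Cflar, Xiap, Birc2, Ripk1 and Ripk3, did not pass in either comparison. The median log2 fold change of the 9 genes was −0.19 over 6 libraries and −0.16 over 5, and that of all tested genes was −0.004 and −0.007. At an unadjusted p under 0.05 over 6 libraries there were 3 of the 9 (Casp8, Birc3 and Mlkl), where 19.9% of tested genes had such a p. Other tools over 6 libraries called 1 of the 9 with DESeq2 (Casp8; 6.27% of tested genes), 0 with limma-voom (1.78%), 1 with length and GC offsets in edgeR (Casp8; 3.84%) and 4 with limma-voom and library quality weights (21.7%). The 4 were the same genes that passed without LPS+resveratrol replicate 1. Quality weights count a library that stands apart for less, so this is not a result separate from that comparison. The groups did not overlap for 6 of the 9 genes, 5 lower and 1 higher with resveratrol, while 33.3% of tested genes had no overlap in either direction.

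**Figure D1:**
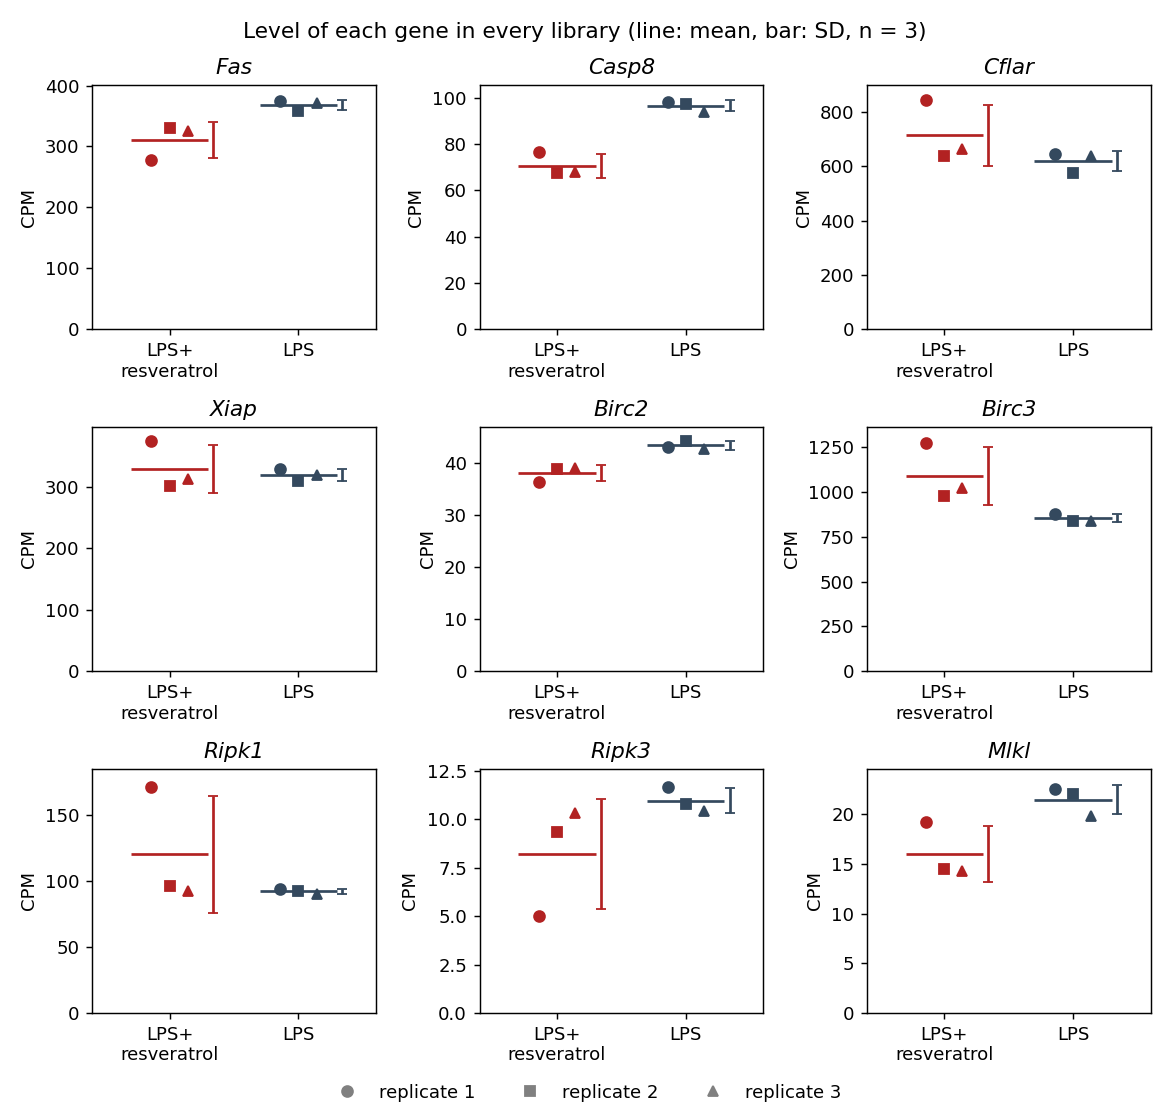
Level in CPM (vertical axis, from 0) of each of the 9 genes in every library, LPS+resveratrol left and LPS right, with the mean as a line, the SD as a bar (n = 3) and the replicate number as the symbol. The groups are apart for Fas, Casp8, Birc2, Birc3, Ripk3 and Mlkl, and LPS+resveratrol replicate 1 (circle) lies far from replicates 2 and 3 for Ripk1 and Ripk3.

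Fas (ENSMUSG00000024778, chromosome 19), which encodes the receptor that starts the pathway, was at 277.4, 331.1 and 325.4 CPM in LPS+resveratrol libraries, against 375.2, 359.0 and 371.3 CPM in LPS libraries. Each LPS+resveratrol library lay below every LPS library, with replicate 1 the lowest. Over 6 libraries the fitted log2 fold change was −0.24 ± 0.11 (SE, n = 3 each; 95% interval −0.49 to 0.005; edgeR adjusted p = 0.256). Without LPS+resveratrol replicate 1 Fas fell by 11.5% (log2 fold change −0.18 ± 0.05, edgeR adjusted p = 0.0127). The call was lost, with log2 fold changes of similar size, when LPS+resveratrol replicate 2 or 3 was also left out (−0.19 and −0.17, adjusted p = 0.0657 and 0.127), which leaves 1 LPS+resveratrol library assumed to vary like the LPS ones. It was also lost without a filter on low counts (−0.15, adjusted p = 0.053).

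Casp8 (ENSMUSG00000026029, chromosome 1) encodes the initiator protease of the pathway, which also keeps necroptosis in check by cutting RIPK1 and RIPK3. It was at 76.6, 67.4 and 68.0 CPM in LPS+resveratrol libraries, against 98.4, 97.5 and 94.1 CPM in LPS libraries. The highest LPS+resveratrol library was well below the lowest LPS library, and replicate 1 lay with the other libraries of its group. The mean was 70.7 ± 5.18 CPM with resveratrol and 96.7 ± 2.27 CPM with LPS alone (SD, n = 3 each). The log2 fold change of −0.45 ± 0.10 (SE; 95% interval −0.69 to −0.22) over 6 libraries missed the threshold (edgeR adjusted p = 0.0791). Without LPS+resveratrol replicate 1 Casp8 fell by 30.4% (log2 fold change −0.52 ± 0.06, edgeR adjusted p = 7.35e-09), and it passed in each of 13 alternatives of that comparison, with log2 fold changes between −0.54 and −0.50 (adjusted p between 2.72e-14 and 7.29e-05).

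The profile of Casp8 over the 6 libraries was compared with those of 6903 tested genes whose mean level reached 10 CPM, as log2 CPM relative to each gene's mean in LPS libraries. The smallest root mean square differences were 0.026 for Tlr2, a receptor for bacterial lipoproteins, 0.032 for the phosphatase gene Ptpn7 and 0.040 for Cd74, the invariant chain of MHC class II. Tlr2 was at 460.0, 388.9 and 386.3 CPM with resveratrol, against 565.5, 558.8 and 541.1 CPM with LPS alone. None of the 3 passed over 6 libraries (edgeR adjusted p = 0.0958, 0.103 and 0.0953), and each was chosen for its likeness to Casp8, so that their direction is not a separate result.

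Cflar (ENSMUSG00000026031), the gene of c-FLIP, lies next to Casp8 on mouse chromosome 1. It was at 843.2, 638.2 and 662.2 CPM in LPS+resveratrol libraries, against 645.4, 575.6 and 636.7 CPM in LPS libraries. The groups overlapped, and LPS+resveratrol replicate 1 alone stood well above all others. Its log2 fold change of 0.21 ± 0.13 (SE, n = 3 each; edgeR adjusted p = 0.419) was 0.06 ± 0.05 without LPS+resveratrol replicate 1 (adjusted p = 0.463), with a 95% interval of −0.05 to 0.17.

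The count of Cflar relative to that of Casp8 was therefore higher with resveratrol, whatever scaling of the libraries is used. It was 11.0, 9.47 and 9.75 Cflar counts per Casp8 count in LPS+resveratrol libraries, against 6.56, 5.90 and 6.77 in LPS libraries. The groups did not overlap. The mean log2 ratio was 3.33 ± 0.12 with resveratrol and 2.68 ± 0.10 with LPS alone (SD, n = 3 each). The difference of 0.65 had a two-sided exact permutation p = 0.1, the smallest that 3 against 3 libraries allow, and 0.15 after Benjamini-Hochberg adjustment over 3 ratios. Leaving out any 1 library gave differences between 0.59 and 0.69. These are ratios of counts, not of transcripts, since the 2 genes differ in transcript length.

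**Figure D2:**
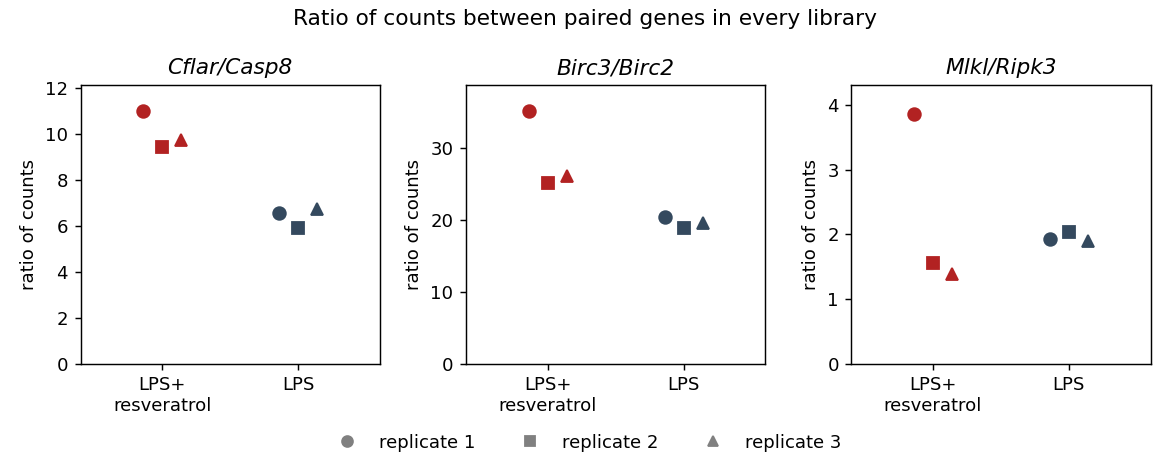
Ratio of counts (vertical axis, from 0) of Cflar to Casp8, Birc3 to Birc2 and Mlkl to Ripk3 in each library, LPS+resveratrol left and LPS right. The first 2 ratios do not overlap between groups, while for Mlkl to Ripk3 LPS+resveratrol replicate 1 at 3.87 lies above and replicates 2 and 3 at 1.56 and 1.39 lie below the LPS libraries.

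Among the IAP genes, Birc3 was the most abundant and the single one of the 9 genes called higher. Birc3 (ENSMUSG00000032000), which encodes cIAP2 and is a well-known target of NF-kB, was at 1276, 975.4 and 1022 CPM in LPS+resveratrol libraries, against 879.5, 838.8 and 840.6 CPM in LPS libraries. Every LPS+resveratrol library lay above every LPS library, and replicate 1 was the highest. The log2 fold change was 0.36 ± 0.12 (SE, n = 3 each; 95% interval 0.06 to 0.65) over 6 libraries, short of the threshold (adjusted p = 0.191 by edgeR). Without LPS+resveratrol replicate 1 Birc3 was 16.4% higher (log2 fold change 0.22 ± 0.05, edgeR adjusted p = 0.000897). With LPS+resveratrol replicate 3 also left out, which leaves a lone LPS+resveratrol library assumed to vary like the LPS ones, the call was lost (log2 fold change 0.18, adjusted p = 0.067).

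Birc2 (ENSMUSG00000057367), the neighbouring and related gene of cIAP1 on chromosome 9, went the other way in its values. It was at 36.3, 38.9 and 39.2 CPM in LPS+resveratrol libraries, against 43.1, 44.4 and 42.8 CPM in LPS libraries. The groups did not overlap, yet the log2 fold change of −0.19 ± 0.10 did not pass (SE, n = 3 each; edgeR adjusted p = 0.326), nor did the −0.16 ± 0.07 without LPS+resveratrol replicate 1 (adjusted p = 0.107). The ratio of Birc3 to Birc2 counts was 35.1, 25.1 and 26.1 in LPS+resveratrol libraries, against 20.4, 18.9 and 19.6 in LPS libraries. The log2 difference of 0.54 had an exact permutation p = 0.1 (two-sided, 0.15 adjusted over 3 ratios), and without LPS+resveratrol replicate 1 the difference was 0.38. Of all stretches of 50 bases in Birc3 transcripts of GENCODE M21, 7.56% also occur in transcripts of other genes, most of them in Gm7019 (4.19%), and for Birc2 the share is 1.49%. How reads of such stretches were assigned is not given in the sources used here.

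Xiap (ENSMUSG00000025860, chromosome X), the IAP that binds executioner caspases directly, was at 374.5, 302.2 and 312.5 CPM in LPS+resveratrol libraries, against 329.7, 309.6 and 319.2 CPM in LPS libraries. Replicates 2 and 3 with resveratrol lay within or just below the LPS range and replicate 1 above it. The log2 fold change was 0.05 ± 0.11 over 6 libraries and −0.06 ± 0.05 without LPS+resveratrol replicate 1 (SE; edgeR adjusted p = 0.846 and 0.416). The second interval, −0.17 to 0.04, contains no change as large as that of Casp8 or Birc3.

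Of the necroptosis genes, Mlkl was the only one called, and only without LPS+resveratrol replicate 1 or with library quality weights. Mlkl (ENSMUSG00000012519, chromosome 8), which encodes the membrane-perforating effector, was at 19.3, 14.5 and 14.3 CPM in LPS+resveratrol libraries, against 22.6, 22.1 and 19.9 CPM in LPS libraries. All 3 LPS+resveratrol libraries lay below the LPS libraries, replicate 1 by a narrow margin. Over 6 libraries Mlkl had a log2 fold change of −0.42 ± 0.15 (SE, n = 3 each; 95% interval −0.78 to −0.07; edgeR adjusted p = 0.197). Without LPS+resveratrol replicate 1 Mlkl fell by 33.3% (log2 fold change −0.58 ± 0.10, edgeR adjusted p = 1.8e-05), and it passed in each of 13 alternatives of that comparison, with log2 fold changes between −0.63 and −0.54 (adjusted p between 7.83e-07 and 0.00246).

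Ripk3 (ENSMUSG00000022221, chromosome 14), the kinase that activates MLKL, was the least abundant of the 9 genes. It was at 4.98, 9.34 and 10.3 CPM in LPS+resveratrol libraries, against 11.7, 10.8 and 10.4 CPM in LPS libraries, and these rest on 91, 173 and 202 counts against 214, 200 and 199. LPS+resveratrol replicate 3 was only just below the lowest LPS library, and replicate 1 was far below. The log2 fold change of −0.42 ± 0.26 over 6 libraries was −0.17 ± 0.13 without LPS+resveratrol replicate 1, and neither passed (SE; edgeR adjusted p = 0.405 and 0.371). The ratio of Mlkl to Ripk3 counts was 3.87, 1.56 and 1.39 in LPS+resveratrol libraries, against 1.94, 2.05 and 1.91 in LPS libraries. Its log2 difference was 0.05 over 6 libraries (two-sided exact permutation p = 1) and −0.42 without LPS+resveratrol replicate 1, where the smallest possible p is 0.2.

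Ripk1 (ENSMUSG00000021408, chromosome 13), the kinase at the branch between survival signalling and death, was at 171.3, 96.6 and 92.7 CPM in LPS+resveratrol libraries, against 94.1, 92.4 and 90.5 CPM in LPS libraries. LPS+resveratrol replicate 1 alone was high, and the other 5 libraries differed little. Ripk1 had a log2 fold change of 0.38 ± 0.24 over 6 libraries and 0.03 ± 0.06 without it (SE; edgeR adjusted p = 0.401 and 0.787), with a 95% interval of −0.09 to 0.14 in the second comparison. Replicate 1 was compared with the mean of LPS+resveratrol replicates 2 and 3 on the log2 scale, with 0.5 added to each CPM. It lay 0.85 above that mean for Ripk1 and 0.91 below it for Ripk3 (deviation −0.91). Against all tested genes these deviations were at percentiles 96.2 and 9.5. In that library genes with transcripts of 2 to 4 kb, the class of Ripk1, had a median deviation of 0.13, and those of 1 to 2 kb, the class of Ripk3, of −0.13. By GC content, the class of Ripk1 (45 to 50%) had a median deviation of 0.18 and that of Ripk3 (50 to 55%) of −0.02. With length and GC offsets over 6 libraries, the log2 fold change was 0.24 for Ripk1 and −0.32 for Ripk3. Neither passed (edgeR adjusted p = 0.407 and 0.42). The part of transcript length or GC content in the 2 deviations of replicate 1 was not tested. Ripk1 exons overlap the pseudogene Gm17084, which shares 5.54% of the 50-base stretches of Ripk1, and Serpinb6a on the opposite strand.

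**Figure D3:**
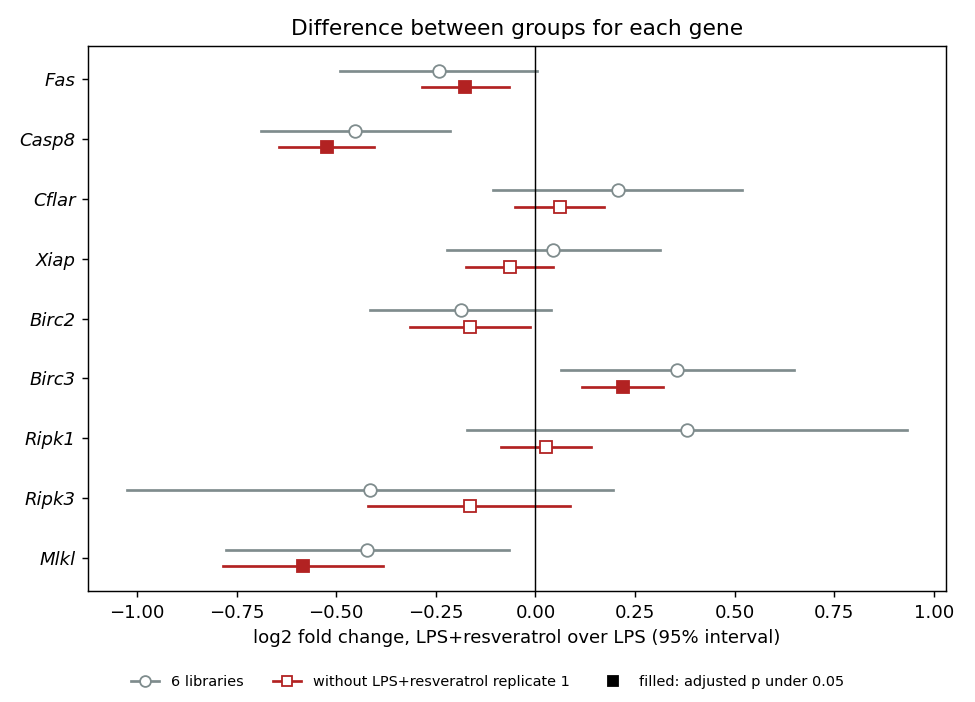
Log2 fold change of LPS+resveratrol over LPS (horizontal axis) with its 95% interval for each gene, over 6 libraries (grey circles) and without LPS+resveratrol replicate 1 (red squares), filled where the edgeR adjusted p is under 0.05. Fas, Casp8 and Mlkl lie left of 0 and Birc3 right of 0 in both, and they are filled only without that replicate, while Ripk1 and Ripk3 have the widest intervals over 6 libraries.

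Levels differed widely between the genes once counts were divided by transcript length. Per kilobase of the median protein-coding transcript, the mean levels with resveratrol were, from high to low, 630.4 ± 93.4 CPM for Birc3, 276.3 ± 43.3 for Cflar, 221.6 ± 21.0 for Fas, 51.1 ± 6.06 for Xiap and 37.5 ± 2.75 for Casp8 (SD, n = 3). Ripk1 followed with 36.8 ± 13.6, Birc2 with 12.2 ± 0.50, Mlkl with 8.11 ± 1.41 and Ripk3 with 4.40 ± 1.52 CPM per kilobase. With LPS alone the levels per kilobase were 492.8 ± 13.3 for Birc3, 262.3 ± 6.01 for Fas, 239.4 ± 14.7 for Cflar, 51.3 ± 1.21 for Casp8 and 49.5 ± 1.56 for Xiap. Ripk1 had 28.3 ± 0.55, Birc2 13.9 ± 0.26, Mlkl 10.9 ± 0.73 and Ripk3 5.87 ± 0.34 CPM per kilobase with LPS alone. Casp8 and Ripk1 overlapped in LPS+resveratrol libraries and Casp8 and Xiap in LPS libraries, and no other neighbours in the 2 orders did. Among all tested genes, the level of Birc3 per kilobase over the 6 libraries was at percentile 98.9, that of Cflar at 97.2 and that of Fas at 96.9, while Ripk3 was at 47.1. The order depends on which length is used: with the union of all exons 7 of the 9 genes kept their rank with resveratrol and 5 with LPS alone, and Fas rather than Birc3 was then highest with LPS alone (178.7 and 170.3 CPM per kilobase).

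The sequences just before the RefSeq transcription start are shown for the 3 genes with the largest changes among those called without LPS+resveratrol replicate 1. RefSeq entries on GRCm38.p6 matched all 9 genes by symbol. Each sequence is the 250 bases upstream of the start on the gene's own strand, and capitals mark AANNGAAA, the core motif of interferon regulatory factors, on either strand. The windows are chr1:58802252-58802501 on the plus strand for Casp8, chr8:111338206-111338455 on the minus strand for Mlkl and chr9:7873171-7873420 on the minus strand for Birc3.
Casp8: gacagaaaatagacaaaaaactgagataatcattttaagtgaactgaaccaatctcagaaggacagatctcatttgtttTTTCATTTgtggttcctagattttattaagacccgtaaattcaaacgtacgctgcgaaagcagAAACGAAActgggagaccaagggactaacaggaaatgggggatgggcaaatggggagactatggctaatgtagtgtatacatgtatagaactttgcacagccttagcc
Mlkl: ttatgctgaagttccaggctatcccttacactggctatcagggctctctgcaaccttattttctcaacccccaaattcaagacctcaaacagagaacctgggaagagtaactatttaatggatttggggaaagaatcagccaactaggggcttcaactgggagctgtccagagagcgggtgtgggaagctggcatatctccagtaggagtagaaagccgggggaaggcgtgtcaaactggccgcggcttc
Birc3: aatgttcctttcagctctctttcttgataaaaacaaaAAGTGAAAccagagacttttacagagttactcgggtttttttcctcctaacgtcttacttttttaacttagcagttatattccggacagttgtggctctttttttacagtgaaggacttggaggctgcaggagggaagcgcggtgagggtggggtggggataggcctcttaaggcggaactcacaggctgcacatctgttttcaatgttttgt
The Casp8 window holds AANNGAAA at 2 places, the Birc3 window at 1 and the Mlkl window at 0, and 21.3% of the 32851 upstream windows of the same length in the RefSeq table hold it. The core of the interferon-stimulated response element, a pair of GAAA spaced by 2 bases that contains AANNGAAA (2.98% of windows), TTCNNNGAA, a STAT motif (7.02%), and the NF-kB consensus (7.25%) were also searched on both strands and had no match in these 3 windows. All 13 windows of the 9 genes were searched. Beyond the 3 shown, AANNGAAA was at 1 place for Fas and at 3 places in 1 window of Birc2. TTCNNNGAA was at 1 place for Fas and at 2 places in 1 window of Ripk1. Birc2 and Ripk1 were not called in either comparison. A match describes letters and not a bound site, and a missing match says nothing beyond the windows searched. The motifs were chosen after the values were seen.

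Other genes of the same pathways were listed in 5 groups, 51 genes in all, of which 48 were tested. Over 6 libraries 1 rose (Ikbkg), 1 fell (Zbp1) and 46 did not pass, and 12 of the 48 had an unadjusted p under 0.05 (19.9% of all tested genes). Over all tested genes 1.83% passed. Without LPS+resveratrol replicate 1, 7 rose, 12 fell and 29 did not pass, where 12.1% of all tested genes rose and 13.3% fell, so that the number that rose is near that background. The median log2 fold change of the 48 genes was 0.02 over 6 libraries and −0.03 over 5. Every call of a single gene over 6 libraries was lost when any 1 of the other 5 libraries was left out, since edgeR then called 0 genes in all, with 1564 to 2721 genes at an unadjusted p under 0.05.

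Among necroptosis regulators, Zbp1 fell in both comparisons. Zbp1, an interferon-induced sensor of left-handed nucleic acid that can activate RIPK3, was at 161.7, 135.8 and 139.3 CPM in LPS+resveratrol libraries, against 252.3, 255.1 and 236.5 CPM in LPS libraries. The groups were far apart, with a log2 fold change of −0.77 ± 0.11 (SE, n = 3 each; edgeR adjusted p = 0.0271). It was −0.86 ± 0.05 when LPS+resveratrol replicate 1 was left out (adjusted p = 7.75e-16). Of the 7 tested regulators, 2 rose and 1 fell without that replicate (12.1% and 13.3% of all tested genes), and 1 lower gene in 7 is near that background. Mapkapk2, a kinase that phosphorylates RIPK1, had 0.28 and Ppm1b, a phosphatase reported to act on RIPK3, 0.20 (log2 fold changes over 5 libraries, edgeR adjusted p = 5.14e-05 and 0.0229). Over 6 libraries their values were 0.14 and 0.23 and did not pass.

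Of 19 genes of the TNF receptor complex and its ubiquitin machinery, Ikbkg rose in both comparisons. Ikbkg, which encodes NEMO, the regulatory subunit of the IkB kinase, was at 347.8, 370.4 and 361.0 CPM in LPS+resveratrol libraries, against 250.8, 230.5 and 262.9 CPM in LPS libraries. The log2 fold change was 0.54 ± 0.10 (SE, n = 3 each; edgeR adjusted p = 0.0474). Leaving out LPS+resveratrol replicate 1 gave 0.55 ± 0.06 (adjusted p = 6.67e-10). Its exons share 5.15% of their bases with G6pdx on the opposite strand, and the use of strand in counting is not given in the sources used here. Without that replicate 2 of the 19 rose, near the 12.1% of all tested genes, and 5 fell, where 13.3% of all tested genes did. Map3k7, the kinase TAK1, rose by 0.20, while Rbck1, a subunit of the linear ubiquitin ligase, fell by 0.38 and Otulin, which removes linear ubiquitin chains, fell by 0.35 in log2 units (adjusted p by edgeR 0.00905, 2.73e-05 and 0.000366). Over 6 libraries these 3 had 0.33, −0.43 and −0.35 and did not pass (adjusted p = 0.203, 0.0955 and 0.116). Tnip1, an adaptor of the A20 ubiquitin editor, had −0.14 over 5 libraries (adjusted p = 0.0325) and 0.05 over 6.

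Death receptors, ligands and adaptors had 8 tested members of 9, of which 1 rose and 3 fell without LPS+resveratrol replicate 1 (12.1% and 13.3% of all tested genes) and 0 passed over 6 libraries (1.83%). The 1 higher gene in 8 is near the background. Tnfrsf10b, the mouse receptor for TRAIL, rose at a very low level. It was at 1.04, 1.73 and 1.73 CPM in LPS+resveratrol libraries, against 0.76, 0.92 and 0.68 CPM in LPS libraries. Its log2 fold change was 1.12 ± 0.35 without replicate 1 (SE; edgeR adjusted p = 0.0149). Tnfsf10, the gene of TRAIL, was at 12.6, 6.85 and 6.42 CPM, against 13.1, 12.7 and 11.5 CPM with LPS alone. It fell by 0.91 on the log2 scale without LPS+resveratrol replicate 1 (adjusted p = 1.15e-06) and had −0.53 over 6 libraries (adjusted p = 0.314), since replicate 1 lay within the LPS range. Tnfrsf21, the death receptor DR6, and Tnf fell by 0.32 and 0.22 without that replicate (adjusted p = 3.86e-05 and 0.0023).

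The 6 other caspase and apoptosome genes had a median log2 fold change of −0.05 over 6 libraries and −0.06 without LPS+resveratrol replicate 1. Over 6 libraries 0 of them passed, where 1.83% of all tested genes did. At an unadjusted p under 0.05 there was 1 of the 6, near the 19.9% of all tested genes. Other IAP genes and IAP antagonists had 8 tested members of 10, of which 1 rose, near the 12.1% of all tested genes, and 3 fell, where 13.3% did, without LPS+resveratrol replicate 1. Birc5, the gene of survivin, which acts mainly in mitosis, fell by 0.58 on the log2 scale, and Xaf1, an interferon-induced antagonist of XIAP, fell by 0.53 (adjusted p = 2.72e-05 and 1.26e-09). Htra2, a mitochondrial protease that binds IAPs, fell by 0.29 (adjusted p = 0.0314), and its exons share 25.6% of their bases with Aup1 on the opposite strand. Naip2, a sensor subunit of the NLRC4 inflammasome, rose by 0.16 (adjusted p = 0.0132), and it is one of several closely related Naip genes among which reads may be split. None of these 4 passed over 6 libraries.

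**Figure D4:**
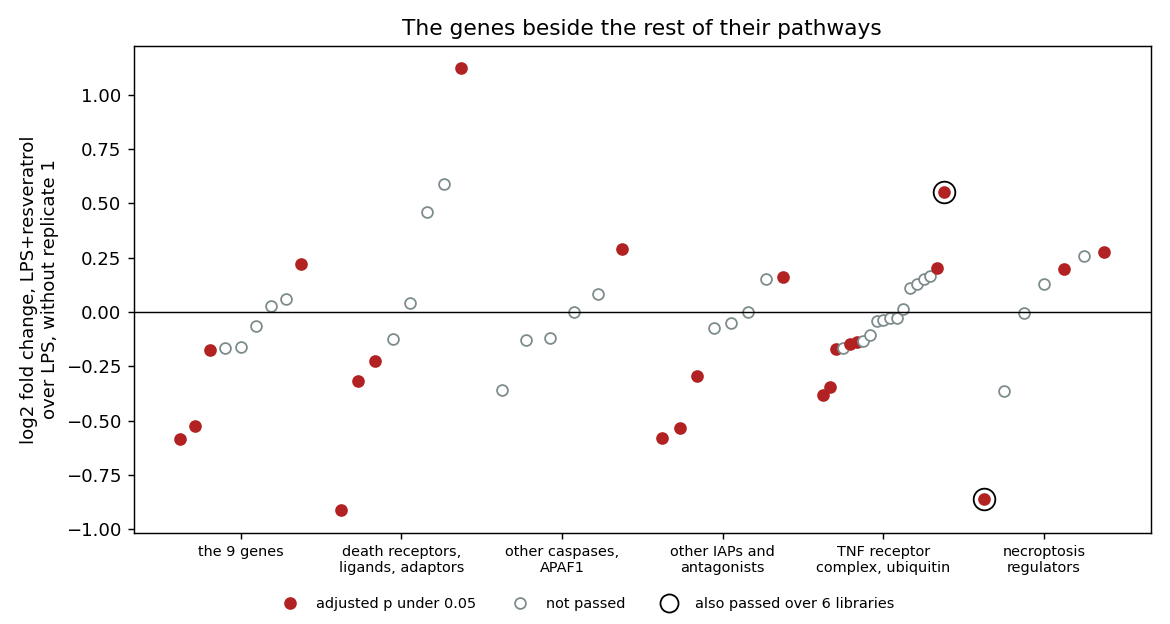
Log2 fold change of LPS+resveratrol over LPS without LPS+resveratrol replicate 1 (vertical axis) for the 9 genes and for the tested genes of 5 related lists, each point 1 gene, sorted within its list. Filled points passed (edgeR adjusted p under 0.05), and the 2 ringed points, Ikbkg at 0.55 and Zbp1 at −0.86, also passed over 6 libraries.

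Markers of other cells were also compared. A gate on CD11b and Ly6G, as named for this sort, would remove most B and T cells. All 5 B cell markers were tested, and their summed level was between 87.8 and 132.8 CPM in LPS+resveratrol libraries, against 141.2 to 151.8 CPM in LPS libraries. The 5 T and NK cell markers summed to between 5.42 and 7.29 CPM with resveratrol and between 10.1 and 11.2 CPM with LPS alone. The 4 eosinophil markers summed to between 29.5 and 60.0 CPM, against 64.0 to 72.9 CPM, and the 4 basophil and mast cell markers to between 51.0 and 59.1 CPM, against 60.7 to 65.0 CPM. The 8 monocyte and macrophage markers did not move together. Adgre1 was higher in every LPS+resveratrol library, at 1288 to 1454 CPM against 1007 to 1070 CPM with LPS alone, while Csf1r was lower in each, at 758.3 to 823.6 CPM against 901.7 to 934.9 CPM. Ctss (60.4 to 63.1 CPM, against 113.9 to 130.1 CPM), Ccr2 and Ly86 were also lower in each. Their sum over all 8 was between 2217 and 2383 CPM with resveratrol and between 2113 and 2159 CPM with LPS alone. Erythroid markers (between 6.73 and 45.3 CPM, against 38.3 to 47.3 CPM) and dendritic cell markers (between 17.3 and 19.3 CPM, against 17.0 to 20.5 CPM) overlapped between the groups. No marker was at 0 in every library. In bulk RNA, fewer cells of a type and less RNA per cell cannot be told apart, and the part of these cells in the lower levels of Casp8, Mlkl and Fas was not tested.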

How the data were processed

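RNA was sequenced from 3 LPS+resveratrol and 3 LPS samples of sorted mouse neutrophils. The authors deposited raw counts, as whole numbers for each Ensembl gene ID, without normalization. The submitters' processing notes name Bowtie 0.12.2 and mm8. The counting program, its annotation, its use of strand and the read length were not stated in the labels used here. Of 25663 IDs, 25595 were matched to a symbol in GENCODE M21, and no coordinates were taken from the deposited table, whose build differs from that of the references; the windows printed are on GRCm38.p6, the build of the RefSeq table.

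Genes were kept by filterByExpr (minimum count 10, over all 6 samples) and tested with edgeR 4.0.16 (R 4.3.3): TMM scaling, group as the single term, robust quasi-likelihood fits, two-sided tests, Benjamini-Hochberg over all 13468 tested genes, threshold 0.05. The same genes were used without LPS+resveratrol replicate 1. CPM are on TMM-scaled totals of tested genes. Standard errors and 95% intervals come from the quasi-likelihood F statistic and its degrees of freedom. Ratios between genes were compared by exact permutation. Transcript length and GC content are medians over protein-coding transcripts, known for 99.84% of tested genes. Alternatives were DESeq2 1.42.0, limma-voom 3.58.1 with and without quality weights, other scalings and filters, length and GC offsets, the replicate number as a block, and leaving out each sample. No 2 samples had identical counts, and pairs within a group differed by more than sampling noise, so none was merged as 1 library deposited again. The lowest chi-square per degree of freedom was 3.29, for LPS+resveratrol replicates 2 and 3, the whole resveratrol group over 5 libraries. LPS replicates 1 and 3 had 3.78. Pairs with LPS replicate 2 had 15.2 and 14.7, and pairs with LPS+resveratrol replicate 1 had 117 and 120. These values do not show that the samples are independent cultures or mice.

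The genes, lists and tests were chosen with earlier results of these data known. Named are the 9 genes, the listed genes called over 6 libraries, up to 3 listed genes in each direction with the smallest adjusted p over 5 libraries, and the 3 genes nearest in profile to the gene of the 9 with the smallest adjusted p. One gene that this rule names is not reported here.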

Additional observations from a re-analysis of the deposited data

How the results depend on the processing

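Over 6 libraries the log2 fold changes of Fas, Casp8, Cflar, Birc2, Birc3, Ripk1, Ripk3 and Mlkl kept their sign in all 15 alternatives, while that of Xiap was negative with quality weights (−0.051) and with length and GC offsets (−0.181), and lay between −0.065 and 0.104 when 1 library was left out. Over 5 libraries all kept their sign in 13 alternatives except Ripk1, which lay between −0.008 and 0.052 when a further library was left out. Casp8 and Mlkl passed in all 13. Birc3 passed in 12, and Fas in 9, being lost without a filter (adjusted p = 0.053), with the replicate block (log2 fold change −0.16, adjusted p = 0.0886) and without LPS+resveratrol replicate 2 or 3. Of the 9 genes, 4 were called with quality weights, 1 with DESeq2 and 1 with length and GC offsets, and between 0 and 4 when 1 library was left out (4 only without LPS+resveratrol replicate 1). Without that replicate and a further library, 2 to 4 were called. Genes called over 6 libraries numbered 247, against 845 with DESeq2, 392 with no filter, 2922 with quality weights and 517 with offsets, and between 0 and 3420 when 1 library was left out; over 5 libraries they numbered 3420, and between 2097 and 3300 with a further library left out. The cause of these differences was not tested. The log2 ratio of Mlkl to Ripk3 was between −0.42 and 0.32 when 1 library was left out, negative only without LPS+resveratrol replicate 1, and those of the 2 other ratios stayed positive. The order of levels with LPS alone kept 5 of 9 ranks with the union of exons as length. With the replicate number as a block edgeR called 0 genes over 6 libraries (2287 at an unadjusted p under 0.05) and 2650 over 5. Libraries of the same number did not deviate together (correlations 0.049, 0.016 and −0.007), each under 0.1. LPS+resveratrol replicates 1 and 2 correlated best with their own number and replicate 3 with LPS replicate 2. The deviations with resveratrol are from a group mean that includes LPS+resveratrol replicate 1, which stood apart. These correlations therefore cannot show whether libraries of the same number share a culture or mouse. Ripk3, with 91 to 214 counts a library, is the gene most limited by depth.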
